A study of Homo sapiens with 6 samples.

Results

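The 9 genes described here, SPI1, CEBPA, CEBPB, CEBPD, CEBPE, KLF4, IRF8, GFI1 and LMO2, encode transcription factors and one transcriptional adaptor that set monocyte and granulocyte fate. They were named by gene symbol, with earlier results of these data known. Each was found once among the 39771 gene rows of the deposited table. Their identifiers there are ENSG00000066336 (SPI1), ENSG00000245848 (CEBPA), ENSG00000172216 (CEBPB), ENSG00000221869 (CEBPD), ENSG00000092067 (CEBPE), ENSG00000136826 (KLF4), ENSG00000140968 (IRF8), ENSG00000162676 (GFI1) and ENSG00000135363 (LMO2). RNA came from MOLM-13, a human acute myeloid leukaemia cell line that carries the MLL-AF9 translocation. All 6 libraries were from cells given a lentiviral short hairpin RNA and selected with puromycin, and they differ in the hairpin: 2 libraries had a non-targeting control hairpin (shNT) and 4 had a hairpin against LAMP5 (shLAMP5), which encodes a lysosome-associated membrane glycoprotein. The labels do not say which LAMP5 hairpin or which harvest time a library stands for, nor that the replicates of a group were cultured separately. A p-value therefore measures only how these samples vary, and that variation may be technical. Each group is 1 cell line, and LAMP5 knockdown is the sole contrast.

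Myeloid cells arise when a few factors act in combination on the same enhancers. PU.1, the protein of SPI1, is an ETS-family factor that opens myeloid enhancers, and C/EBP proteins are leucine zipper factors that bind as dimers beside it, first C/EBPα in granulocyte-monocyte progenitors and later C/EBPε in maturing granulocytes. IRF8 and KLF4 favour the monocyte branch and GFI1, a repressor that recruits histone demethylase and deacetylase complexes, favours the granulocyte branch. LMO2 binds no DNA itself and bridges other factors in stem and progenitor cells. MLL-fusion leukaemia cells are held at a myeloid progenitor stage at which many of these genes are active.

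The start regions of these genes show which of the factors' short recognition words lie beside the promoters, and are shown to place the members in their network. Promoter sequences from RefSeq (GRCh38.p14) were at hand for 6 of the 9 genes, CEBPA, CEBPB, CEBPE, GFI1, IRF8 and KLF4, with 10 annotated starts in all. The 250 bases upstream of each start were searched on both strands for GAGGAA, the core word of PU.1 sites, which was found for 3 of the 6 genes. Among all 27305 genes with a promoter in that table, 27.3% hold GAGGAA in such a window. Some members have several starts, and counted by window GAGGAA was in 3 of 10, against 23.6% of all windows. The 3 matches are given 5′ to 3′ on the gene's strand, in windows of 30 bases with GAGGAA in capitals.
CEBPE, chr14:23119279-23119308, minus strand, match beginning 41 bases before the start: gcattgactacaGAGGAAggaaaaggaagc
KLF4, chr9:107489806-107489835, minus strand, 54 bases before the start: tgggagaaggcgGAGGAAaaggctgtagcg
GFI1, chr1:92483827-92483856, minus strand, 30 bases before 1 of its 3 annotated starts: gtgggcagggagGAGGAAaggggcctgaga

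The C/EBP word TTGCNNAA was found at 1 of the 6 genes, GFI1, in the window of another start, and 11.0% of all genes hold it. By window it was in 1 of 10, against 9.1% of all windows. The match is the palindrome TTGCGCAA, shown here in capitals and read the same on both strands.
GFI1, chr1:92486223-92486252, minus strand, 142 bases before the start: cgcctggccacTTGCGCAAaggagcgcgcc
The longer word TTGCNNCAA was found at 1 of the 6 genes, IRF8, against 2.0% of all genes, and in 1 of 10 windows, against 1.6%. It has 1 base more than the C/EBP palindrome, so its match is not read as a C/EBP site. The ETS-IRF composite element (3.0% of all genes) and the interferon response element (3.7%), searched as fixed words, were found at 0 of the 6. The words do not overlap one another at these places. A match is a description of the letters in the window and was not tied to binding or to any expression value. The deposited values were made with another build (hg19), so these coordinates locate the sequences and were not joined to the table.

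In these data LAMP5 had the direction of its label, with 169.9 and 282 TPM in shNT 1 and shNT 2 and 65.6 to 86.65 TPM in the 4 shLAMP5 libraries. TPM is a length-normalised share of a library's transcripts, so levels of different genes can be compared. The number of rows at 1 TPM or more was 12192 to 12661 per library, and read depth is unknown because TPM does not keep it. Of 14 markers of myeloid and MLL-fusion leukaemia cells, such as CD33, LYZ, FLT3 and HOXA9, all 14 were tested and 0 were at 0 TPM. The other cell types gave little signal: megakaryocyte markers summed to at most 1.534 TPM in any library with PF4 and PPBP at 0, B cell markers to at most 2.2 TPM, and erythroid markers to 4.94 to 6.685 TPM in shNT and 3.66 to 6.32 TPM in shLAMP5, nearly all of it EPOR, with HBA2 at 0. T cell markers summed to 2.32 to 4.17 TPM in shNT and 2 to 8.91 TPM in shLAMP5, nearly all CD3D, with TRAT1 at 0. The 10 packaging cell and fibroblast markers summed to 29.6 to 32.2 TPM in shNT and 27.1 to 39.3 TPM in shLAMP5, mostly KRT18 and KRT8, with COL3A1 at 0, and their part in the results below was not tested. The shLAMP5 2 library stands apart, with a median scaling factor of 0.826 against 0.998 to 1.065 in the others. Some of the shifts in counts or medians without it are given beside them, not all.

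After LAMP5 knockdown 6 of the factors had higher mean values, and 0 of the 9 passed the test. The C/EBP genes, SPI1 and LMO2 make up those with a positive fold change, while IRF8, GFI1 and KLF4 had negative values. All 9 were tested, in a limma fit over 13072 genes, and 6 had a positive and 3 a negative fold change. The median was 0.48 on the log2(TPM + 1) scale, against -0.006 over all genes tested. The number of members with an adjusted p under 0.05 was 0, as it was over all genes (0.0% of the genes tested), and the members' adjusted p ran from 0.524 to 0.951. At an unadjusted p under 0.05, CEBPB, LMO2 and CEBPE were higher, 3 of 9 members, where 3.72% of all genes were higher, and 0 members were lower, where 5.25% of all genes were. The count of higher members at that p was 0 without shLAMP5 3, where 2.28% of all genes were then higher, and 1 (LMO2) without shLAMP5 2, where 10.6% were. Leaving out an shNT library leaves 1 in that group, so only fold changes are given. For CEBPB, LMO2 and CEBPE these were 0.51, 0.76 and 0.37 without shNT 2 and 1.35, 0.68 and 0.58 without shNT 1. In 3 members, CEBPD, CEBPE and LMO2, every shLAMP5 library lay above both shNT libraries, where 8.25% of all genes did, although CEBPD overlapped under median scaling and quantile normalization. In 0 members did every one lie below both, where 13.5% of all genes did. When shLAMP5 2 was left out, the members with every shLAMP5 library above both were the same 3, where 22.5% of all genes were. In bulk RNA, fewer cells that express a gene and less RNA per cell cannot be told apart, so these values are averages over the culture.

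**Figure D1:**
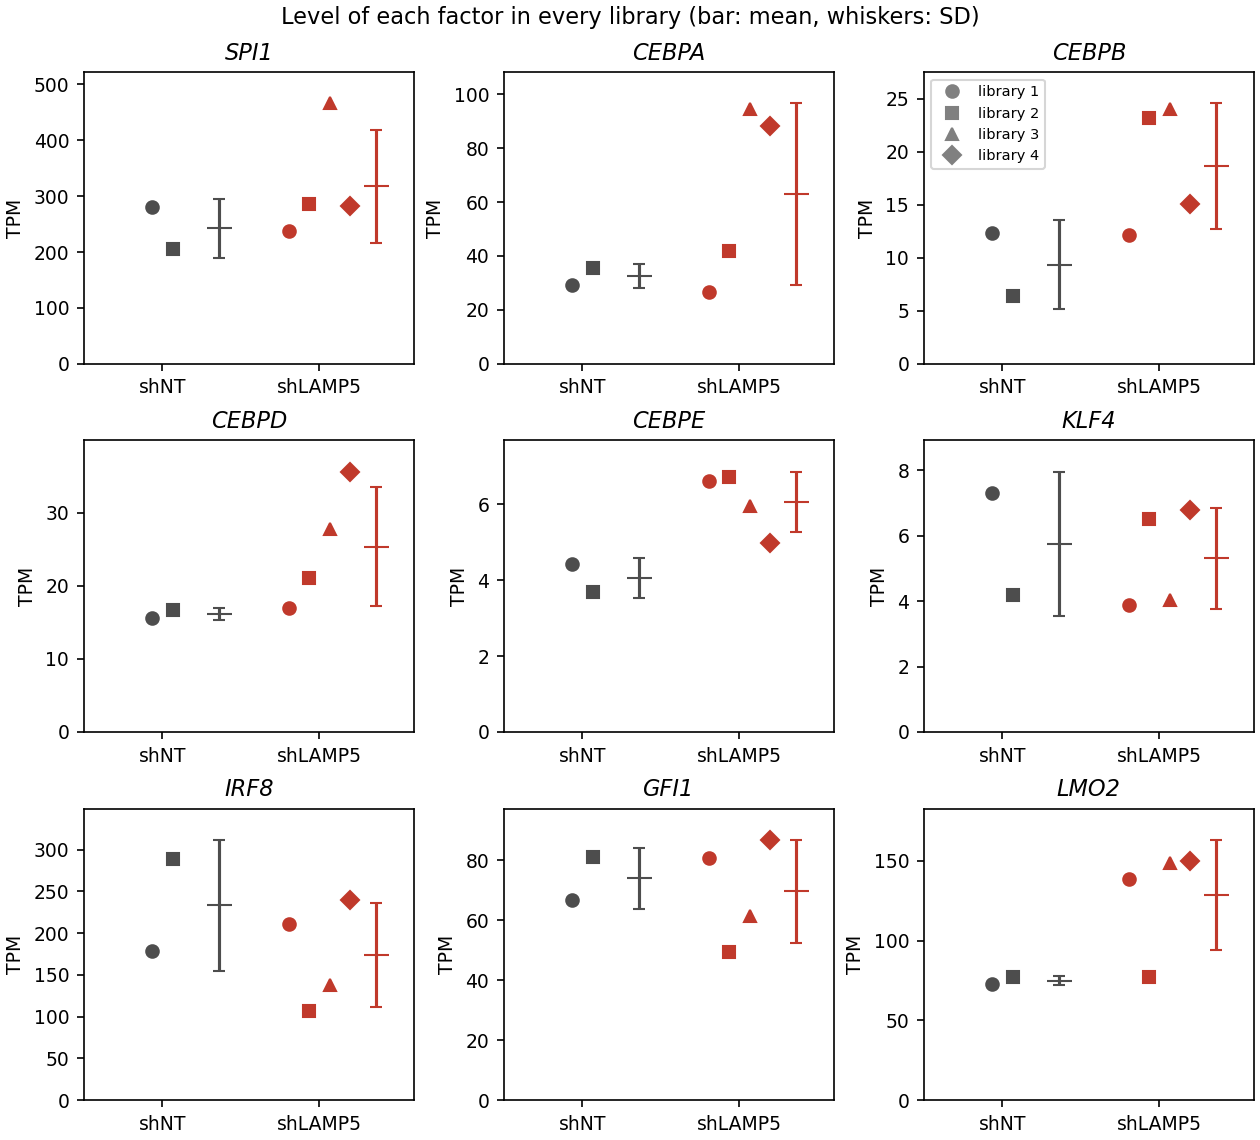
TPM of each of the 9 factors in the 2 shNT libraries (grey) and the 4 shLAMP5 libraries (red), each panel on its own linear axis from 0; the symbol gives the library number, and the bar and whiskers give the mean and SD. CEBPD, CEBPE and LMO2 are the 3 panels in which every red point lies above both grey points (not for CEBPD under median scaling or quantile normalization), and in the LMO2 panel the shLAMP5 2 square sits beside the grey points.

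The abundant factors were SPI1 and IRF8. In shNT cells SPI1 averaged 243 ± 53.2 TPM and IRF8 233 ± 78.3 TPM (SD, n = 2), LMO2 74.9 ± 2.95 and GFI1 74.1 ± 10.2, CEBPA 32.4 ± 4.48, CEBPD 16.2 ± 0.811, CEBPB 9.36 ± 4.16, KLF4 5.76 ± 2.2 and CEBPE 4.06 ± 0.521 TPM. Averaged over the 6 libraries, SPI1 lay above 97.4% of the genes tested, and CEBPE and KLF4 above 31.2% and 31.5%. Of the 8 neighbouring pairs in that order, 4 did not differ beyond the range of their libraries: SPI1 with IRF8, LMO2 with GFI1, CEBPB with KLF4, and KLF4 with CEBPE. In shLAMP5 cells the order was the same down to CEBPB, with KLF4 last, and 7 of the 8 neighbouring pairs overlapped. The pair that did not was CEBPB, at 12.1 to 24.1 TPM, and CEBPE, at 4.99 to 6.72 TPM.

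SPI1 encodes PU.1, which activates the receptor genes of monocytes and neutrophils. It measured 280.2 and 205 TPM in shNT 1 and 2, and 238, 285.6, 465.9 and 282 TPM in shLAMP5 1 to 4. The groups overlapped, and the 1 library clear of the rest was shLAMP5 3. This gave a log2 fold change of 0.36 with an SE of 0.29 and a 95% interval of -0.3 to 1.02 (limma adjusted p 0.737). It ranged from 0.13 without shNT 2 to 0.58 without shNT 1, and was 0.16 without shLAMP5 3.

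CEBPA, the factor that admits progenitors to the granulocyte and monocyte lineages and restrains their division, spread most among the shLAMP5 libraries. It measured 29.3 and 35.6 TPM in shNT 1 and 2 and 26.75, 41.7, 94.7 and 88.3 TPM in shLAMP5 1 to 4. The highest shLAMP5 library had 3.54 times the level of the lowest. shLAMP5 1 was the lowest of all 6 libraries, while shLAMP5 3 and 4 stood far above the other 4. The group means of 32.4 ± 4.48 TPM (SD, n = 2) and 62.9 ± 33.7 TPM (SD, n = 4) gave a log2 fold change of 0.76 (SE 0.49, 95% interval -0.38 to 1.9, limma adjusted p 0.676). Without shLAMP5 1 it was 1.1, with every shLAMP5 library then above both shNT libraries, and without shLAMP5 3 it was 0.51.

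CEBPB, which drives granulocyte output under stress and serves in macrophages, had the largest fold change of the 9 when all 6 libraries were used. It measured 12.3 and 6.42 TPM in shNT 1 and 2 and 12.1, 23.2, 24.1 and 15.1 TPM in shLAMP5 1 to 4. The groups overlapped by a narrow margin, since shLAMP5 1 lay just under shNT 1. Its fold change on the log2 scale was 0.93, with an SE of 0.35, a 95% interval of 0.13 to 1.73, an unadjusted limma p of 0.0286 and an adjusted p of 0.524. The 2 shNT libraries differed 1.92-fold from each other, and the fold change was 1.35 without shNT 1 and 0.51 without shNT 2.

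CEBPD, a C/EBP gene that responds quickly to inflammatory signals, measured 15.6 and 16.7 TPM in shNT 1 and 2 and 16.9, 21.1, 27.8 and 35.6 TPM in shLAMP5 1 to 4. All 4 shLAMP5 libraries were above both shNT libraries, shLAMP5 1 by a small margin. On the log2 scale the difference was 0.57 (SE 0.29, limma adjusted p 0.601), and 0.39 without shLAMP5 4. Under median scaling and under quantile normalization its groups overlapped.

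CEBPE acts late in granulocyte maturation, where it turns on the genes of secondary granules. It was the least abundant C/EBP gene, with 4.43 and 3.7 TPM in shNT 1 and 2 and 6.6, 6.72, 5.97 and 4.99 TPM in shLAMP5 1 to 4. Here shLAMP5 1 and 2, the lower pair for CEBPA, were the higher pair, and every shLAMP5 library lay above both shNT libraries. The shNT mean was 4.06 ± 0.521 TPM (SD, n = 2). That of shLAMP5, 6.07 ± 0.793 TPM (SD, n = 4), gave a log2 fold change of 0.48, with an SE of 0.2, a 95% interval of 0.006 to 0.95, an unadjusted limma p of 0.0478 and an adjusted p of 0.552. The log2(TPM + 1) scale understates the change of a gene this low, and with a pseudocount of 0.1 the value was 0.56 and with one of 5 it was 0.29. The unadjusted p rose above 0.05 with the pseudocount of 5 (0.0517), under median scaling (0.0564), under quantile normalization (0.0833) and with no filter (0.0509). It did so also when shLAMP5 1, shLAMP5 2 or shLAMP5 3 was left out singly.

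Summed over the 4 C/EBP genes, which bind the same DNA word and pair with each other, the level was 61.6 and 62.5 TPM in shNT 1 and 2. In shLAMP5 1 it was 62.4 TPM, within the range of the shNT libraries, and in shLAMP5 2, 3 and 4 it was 92.7, 152.5 and 144 TPM. The make-up of the sum differed as well. CEBPA made up 62.1% and 61.3% of it in shLAMP5 3 and 4, 42.9% and 45% in shLAMP5 1 and 2, and 47.5% and 57% in shNT 1 and 2. CEBPB made up 25% in shLAMP5 2 and 10.3% in shNT 2, its highest and lowest shares. These sums add transcripts and say nothing of protein, which for C/EBPα and C/EBPβ comes in long and short forms made from 1 messenger RNA.

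**Figure D2:**
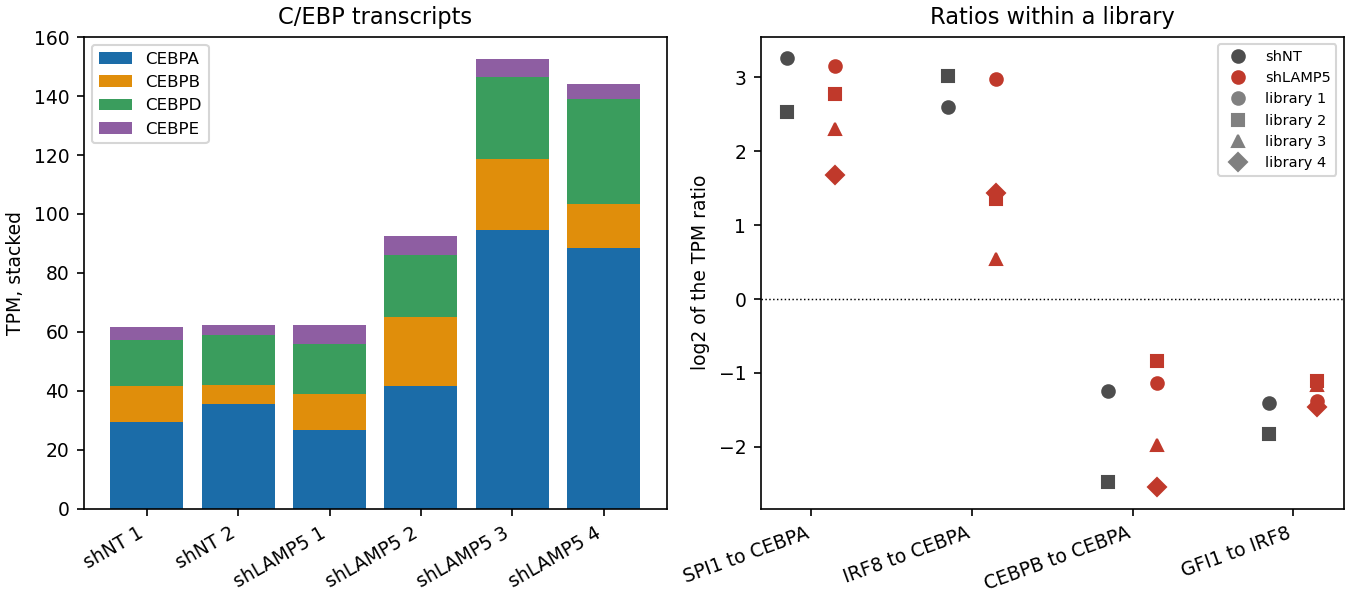
Left, TPM of the 4 C/EBP genes stacked for each library; right, log2 of the TPM ratio of 4 pairs of factors in each library, shNT in grey and shLAMP5 in red. The stacked level of shLAMP5 1 (62.4 TPM) equals that of the shNT libraries to within 1 TPM, while shLAMP5 3 and 4 reach 152.5 and 144 TPM; in each of the 4 ratios the groups overlap.

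IRF8, which directs progenitors to monocytes and dendritic cells and away from granulocytes, had the most negative fold change of the 9 when all 6 libraries were used. It measured 178 and 288.8 TPM in shNT 1 and 2 and 210.9, 106.8, 137 and 239.5 TPM in shLAMP5 1 to 4. shLAMP5 2 and 3 were below both shNT libraries, while shLAMP5 1 and 4 lay between them. Its log2 fold change of -0.46 had an SE of 0.36 and a 95% interval of -1.29 to 0.38 (limma adjusted p 0.732). It was -0.8 without shNT 1, -0.11 without shNT 2 and -0.25 without shLAMP5 2.

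KLF4, a zinc finger factor that promotes monocyte differentiation, was among the least abundant of the 9 and showed no common direction. It measured 7.32 and 4.2 TPM in shNT 1 and 2 and 3.88, 6.51, 4.05 and 6.79 TPM in shLAMP5 1 to 4. Each group held both low and high libraries. The groups differed by -0.094 on the log2 scale (SE 0.3, 95% interval -0.79 to 0.6, limma adjusted p 0.951), and the sign turned when shNT 1, shLAMP5 1 or shLAMP5 3 was left out.

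GFI1 measured 66.9 and 81.3 TPM in shNT 1 and 2 and 80.96, 49.6, 61.3 and 86.7 TPM in shLAMP5 1 to 4. Its highest and its lowest library were both shLAMP5 libraries. Its log2 difference was -0.12 (SE 0.26, 95% interval -0.72 to 0.49, limma adjusted p 0.924), and the sign turned without shNT 2 and without shLAMP5 2.

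LMO2, the LIM-domain bridge of stem and progenitor cell complexes, is expressed in many leukaemias. It measured 72.8 and 77 TPM in shNT 1 and 2, and 138.7, 77.4, 148.4 and 149.9 TPM in shLAMP5 1 to 4. The shLAMP5 libraries 1, 3 and 4 were close to each other and well above shNT, while shLAMP5 2 was level with shNT 2. A log2 fold change of 0.72 resulted, with an SE of 0.29, a 95% interval of 0.049 to 1.4, an unadjusted limma p of 0.0386 and an adjusted p of 0.541. Without shLAMP5 2 it was 0.95 with an adjusted p of 0.104, the smallest adjusted p of any member under any of the 15 alternatives. The unadjusted limma p rose to 0.077, 0.086 and 0.085 without shLAMP5 1, 3 and 4, with fold changes of 0.67, 0.64 and 0.64. The fold change was 0.68 without shNT 1 and 0.76 without shNT 2.

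**Figure D3:**
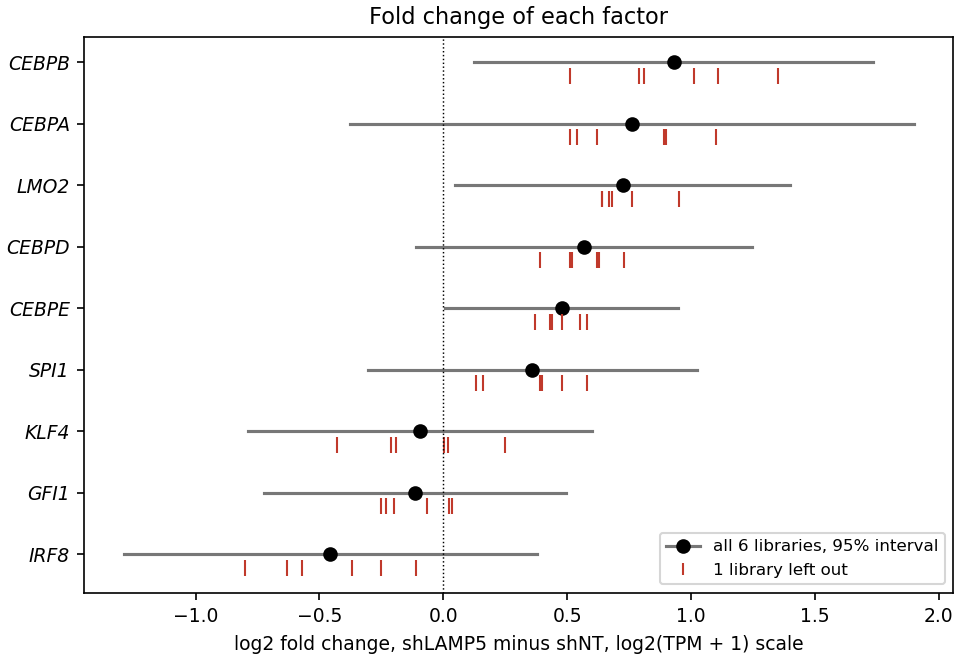
Log2 fold change of each factor (log2(TPM + 1) scale, shLAMP5 minus shNT), with its limma 95% interval (grey line) and, below it, the value with each of the 6 libraries left out (red ticks). The intervals of CEBPB, LMO2 and CEBPE lie above 0, before any adjustment for the genes tested, and the red ticks of KLF4 and GFI1 fall on both sides of 0.

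The factors did not vary together along the contrast alone. IRF8 and GFI1 were both low in shLAMP5 2, shLAMP5 3 and shNT 1, and both high in shNT 2, shLAMP5 4 and shLAMP5 1. SPI1 and CEBPB, in contrast, ranked the 6 libraries in the same order: shLAMP5 3 highest, then shLAMP5 2, shLAMP5 4, shNT 1, shLAMP5 1, and shNT 2 lowest. In shNT 2, IRF8 was 0.65 above its mean over the 6 libraries on the log2(TPM + 1) scale and CEBPB had a deviation of -1.04 from its own. CEBPA, CEBPD and LMO2 shared high values in shLAMP5 3 and shLAMP5 4, with deviations of 0.37 to 1.02, and low values in both shNT libraries. LMO2 differed from CEBPA in shLAMP5 1, at 0.4 against -0.77. For 8 of the 9 factors, all but CEBPE, the range of TPM among the 4 shLAMP5 libraries was wider than the difference between the group means.

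**Figure D4:**
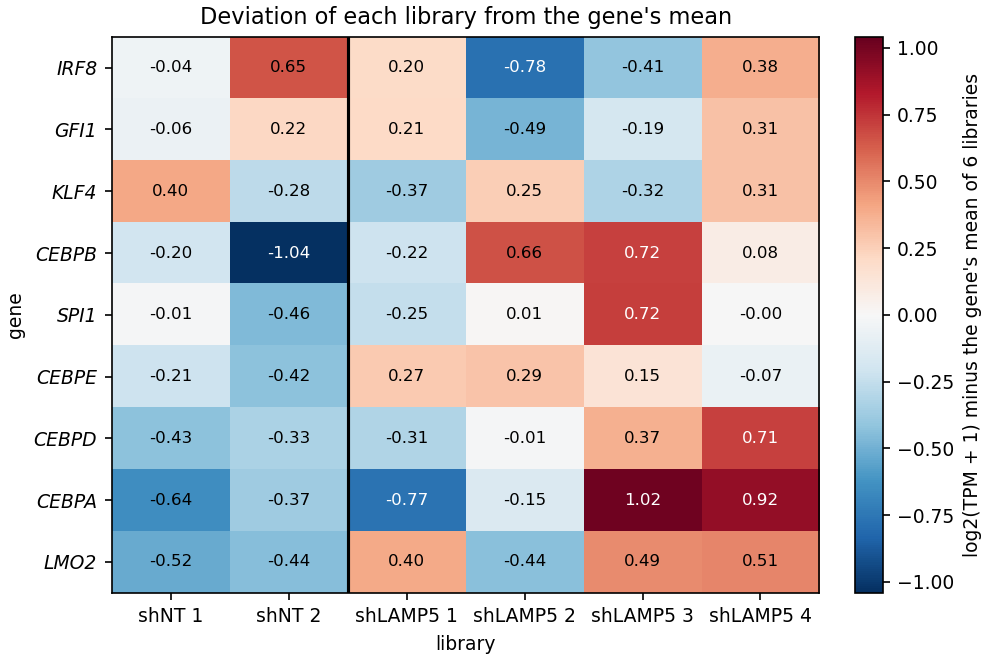
Deviation of each library from the gene's mean over the 6 libraries, in log2(TPM + 1) units (red above, blue below), with the 2 shNT libraries left of the line. IRF8 is at 0.65 in shNT 2 and -0.78 in shLAMP5 2, CEBPB at -1.04 and 0.66 in the same libraries, and LMO2 is blue in both shNT libraries and in shLAMP5 2.

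Ratios between factors within 1 library do not depend on how libraries were scaled. The ratio of IRF8 to CEBPA, a monocyte-dendritic factor over the factor of the common progenitor, was 6.08 and 8.11 in shNT 1 and 2 and then 7.89, 2.56, 1.45 and 2.71 in shLAMP5 1 to 4. The shLAMP5 libraries 2, 3 and 4 were below both shNT libraries and shLAMP5 1 lay between them. On the log2 scale the groups differed by -1.23, with an SD of 1.02 among the shLAMP5 libraries. For SPI1 to CEBPA the ratio was 9.57 and 5.76 in the controls and 8.91, 6.85, 4.92 and 3.19 in the knockdown libraries 1 to 4, a log2 difference of -0.42 with an SD of 0.64. It was -0.049 without shNT 1, -0.15 without shLAMP5 4, -0.64 without shLAMP5 1 and -0.78 without shNT 2. The CEBPB to CEBPA and GFI1 to IRF8 ratios differed by 0.23 and 0.34 on the log2 scale, the first with a sign that turned when single libraries were left out (-0.38 to 0.84) and the second from 0.13 without shNT 2 to 0.55 without shNT 1. No test was made of these ratios.

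The genes around the 9 factors were taken from lists chosen by their known roles, with earlier results of these data known. Their counts beside those of all genes are therefore a description. Monocyte and macrophage genes under the control of PU.1 and IRF8 had the most members with small p-values. Of 30 listed genes, 27 were tested, and 24 had a positive and 3 a negative fold change, with a median of 0.74 against -0.006 over all genes tested. An adjusted p under 0.05 was reached by 0 of them, an unadjusted p under 0.05 by 11, all with positive values (3.72% of all genes were higher at that p). In 10 of the 27 every shLAMP5 library lay above both shNT libraries, as in 8.25% of all genes. That number was 19 without shLAMP5 2, where 22.5% of all genes were then higher in the same way. FCER1G, the signalling chain of Fc receptors, measured 53.4 and 26.8 TPM in the shNT libraries, then 124, 72.9, 219.8 and 146.5 TPM in the shLAMP5 libraries 1 to 4, a log2 difference of 1.76 (limma adjusted p 0.491). TYROBP, another signalling adaptor of myeloid receptors, had 1.21 (adjusted p 0.491). The negative members with the smallest p were MSR1, a scavenger receptor at or below 1.284 TPM in every library, at -0.25, and BTK, a kinase of myeloid and B cells, at -0.064. SPI1 itself had 0.36 and IRF8 -0.46 in the same fit, and whether the factors' levels bear on those of the genes was not tested. Without shLAMP5 2 the number at an unadjusted p under 0.05 was 17 of 27, where 10.6% of all genes were then higher. Without shLAMP5 3 it was 7, where 2.28% were. The list median was 0.57 without shNT 2.

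Granulocyte genes under C/EBP control had mostly positive values. Of 24 listed, 13 were tested, 10 with a positive and 3 with a negative value, and the median was 0.78. An adjusted p under 0.05 was reached by 0 and an unadjusted one by 2, both higher (3.72% of all genes were). Without shLAMP5 2 the values were 12 positive and 1 negative, with 4 higher at that p, where 10.6% of all genes were. Without shNT 2 they were likewise 12 and 1. Without shLAMP5 3 the median was 0.37, and at a minimum of 10 TPM it was 0.39. Since 11 did not reach 1 TPM in 2 libraries, this median describes only those that did, and it was 0.23 when the 21 genes with any value above 0 were used. CSF3R, through which granulocyte colony-stimulating factor signals, was at 96.3 and 112 TPM in the controls and at 211 to 233.9 TPM in the knockdown libraries (log2 fold change 1.09, limma adjusted p 0.252). FPR1, a receptor for bacterial peptides, had 1.42 (adjusted p 0.505). The primary granule genes MPO and PRTN3 had -0.8 and -0.25 (adjusted p 0.716 and 0.911). MPO was highest in shNT 2, at 43.2 TPM, and lowest in shLAMP5 2, at 5.51 TPM, the libraries that also held the extremes of IRF8. CSF3R and FPR1 were the 2 tested members of 13 in which every shLAMP5 library lay above both shNT libraries, as in 8.25% of all genes. Such members numbered 4 without shLAMP5 2, where 22.5% of all genes were then higher in the same way.

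Among 37 other haematopoietic transcription factors tested of 44 listed, 23 had positive and 14 negative values, with a median of 0.2. An adjusted p under 0.05 was reached by 0 of them and an unadjusted one by 2 of the 37, both lower, a share close to the 5.25% of all genes that were lower at that p. Without shLAMP5 2 there were 6 higher at that p, 16.2% of those tested, where 10.6% of all genes were then higher, and 2 lower. The 2 lower genes were CEBPZ, a CCAAT-binding protein named after the C/EBP family (log2 fold change -0.56, limma adjusted p 0.534), and BATF3, a partner of IRF8 in dendritic cells, with 16.2 and 10.8 TPM in shNT and 5.84 to 10.1 TPM in shLAMP5 (-0.66, adjusted p 0.534). IRF2, which binds the same elements as IRF8, had 0.44 and KLF6, a relative of KLF4, 0.73, neither past the test. The median of this list turned to -0.032 without shNT 2.

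Binding partners and cofactors of the 9 proteins, which include the demethylase complex of GFI1 and the LMO2 complex, were tested for 24 of 27 genes. They had 10 positive and 14 negative values and a median of -0.1, with 0 at an adjusted p under 0.05. E2F1, the cell cycle factor that C/EBPα holds in check, measured 12.3 and 15.5 TPM in the shNT libraries, then 9.56, 7.78, 3.44 and 7.24 TPM in the shLAMP5 libraries 1 to 4, a log2 difference of -0.96 (limma adjusted p 0.524). All 4 shLAMP5 libraries were below both shNT libraries, as in 13.5% of all genes, and the lowest was shLAMP5 3. CEBPA was highest in shLAMP5 3 and lowest in shLAMP5 1, and whether its level bears on that of E2F1 was not tested. LYL1, a helix-loop-helix partner of LMO2, had 0.24 (adjusted p 0.792). The GFI1 corepressors KDM1A and RCOR1, named after their values were seen, had -0.32 and 0.3.

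Of 18 genes that act on the level or activity of C/EBP proteins, PU.1 or IRF8, 16 were tested, 9 with positive and 7 with negative values, and the median was 0.095. An adjusted p under 0.05 was reached by 0 and an unadjusted one by 3, all higher, where 3.72% of all genes were. The median was 0.27 without shLAMP5 2, with 6 higher at that p where 10.6% of all genes were, and -0.0079 without shLAMP5 1. Without shLAMP5 1, 3 or 4 singly, 1 was higher at that p, where 3.59%, 2.28% and 2.48% of all genes were. With no filter it was 1 of 18, where 2.21% were. IL6ST, the shared receptor chain of the interleukin 6 family, lay at 1.44 to 5.23 TPM, with 0.84 on the log2 scale (limma adjusted p 0.534). SKP2, part of a ubiquitin ligase, and EIF4E, the cap-binding translation factor, had -0.75 and -0.55 (adjusted p 0.566 and 0.576). For both genes every shLAMP5 library lay below both shNT libraries, as in 13.5% of all genes. CSF3R also belongs to this list and to the leukaemia cell markers, so the lists are not independent. In the marker list CD68, a macrophage glycoprotein, had 1.17 and HOXA10, an MLL-fusion target, -0.2, and 10 of the 14 values were positive. Of the markers of other cells, CD3D had 0.44, CD79A 0.31, EPOR -0.19, KRT8 0.51, COL1A1 0.41 and KRT18 -0.17, and 0 passed the test.

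**Figure D5:**
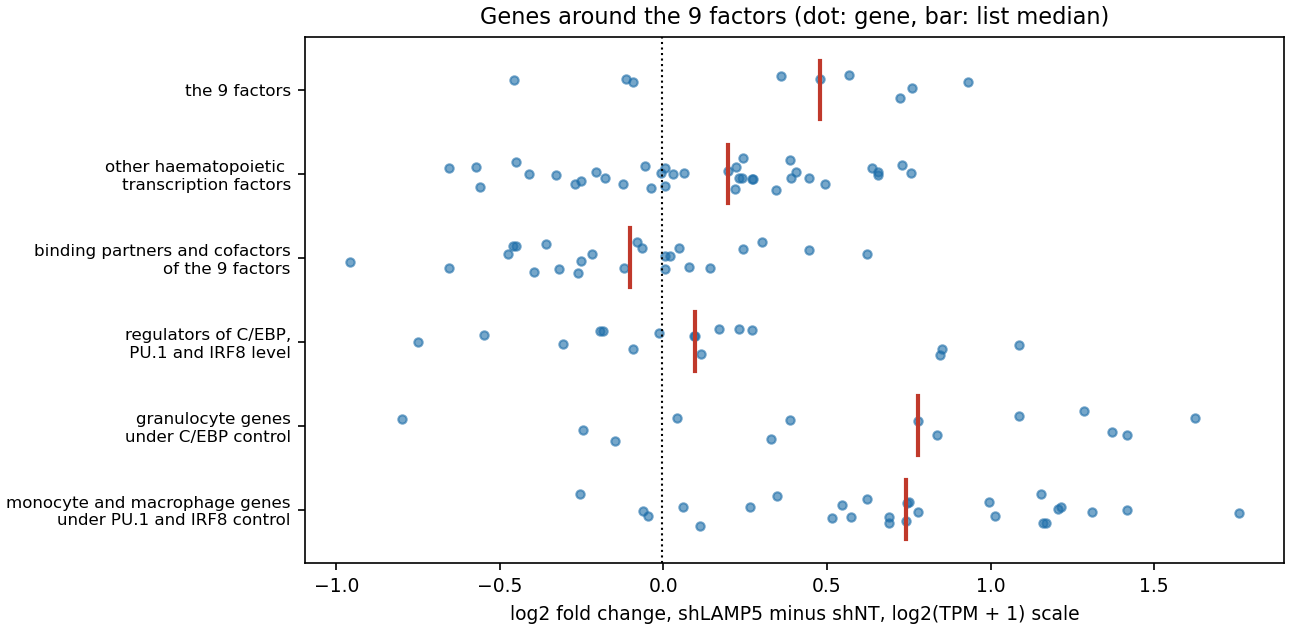
Log2 fold change (shLAMP5 minus shNT, log2(TPM + 1) scale) of each tested gene of the 9 factors and of 5 lists around them, 1 dot per gene, with the median of each list as a bar and the median of all genes tested as a dotted line. The medians of the granulocyte and the monocyte lists lie at 0.78 and 0.74, that of the 9 factors at 0.48 and that of their binding partners at -0.1.

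For each factor the genes with the most similar profile over the 6 libraries were sought among 9211 genes with a mean of at least 5 TPM, by Pearson correlation of log2(TPM + 1). With 6 libraries and so many genes, values near 1 are found for nearly any profile, and the correlations are given as a description. The closest to SPI1 were CAPN2 (r = 0.998) and FLNA (0.995), to CEBPA UQCC1 (0.992) and the identifier ENSG00000236271 (0.986), and to CEBPB H1-2 (0.996) and TES (0.994). For CEBPD they were FAM114A2 (0.993) and ANKRD44 (0.973), for CEBPE APTR (0.978) and GFPT1 (0.969), and for LMO2 ADA2 (0.997) and SUN2 (0.995). IRF8 was closest to ABCB10 (0.997) and ACTR3B (0.995), GFI1 to B3GNT2 (0.998) and ZNF587 (0.997). KLF4, whose profile was least matched, was closest to TNFAIP3 (0.965) and ELOVL6 (0.91).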

How the data were processed

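RNA from 6 MOLM-13 libraries was sequenced on a HiSeq instrument from TruSeq libraries, per the labels' protocols. The authors deposited 1 table of gene-level values, read as TPM since no value need be whole and each library adds up to 897026 to 912565. Quantification with kallisto against hg19 is stated per the submitters' processing notes. Its version, the transcript set and the way transcripts were joined into genes are not stated. Columns were tied to libraries by the labels' descriptions and groups came from the titles. Of 39771 identifiers, 29895 matched a symbol.

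limma 3.58.1 (R 4.3.3) with a mean-variance trend was fitted to log2(TPM + 1) of genes that reached 1 TPM in 2 or more libraries. Benjamini-Hochberg adjustment was over all genes, with a threshold of 0.05. The code was run on simulated data in which genes varied independently with 1 common SD and no library effect. That run checks the code only and says nothing of how these libraries vary. Fold changes are shLAMP5 minus shNT. Other steps used matplotlib 3.10.9, numpy 2.4.6, pandas 2.3.3 and Python 3.11.15. The 9 genes, the lists and the tests were chosen with earlier results of these data known. The genes named are the 9 factors, LAMP5, the 2 members of each list with the smallest p in each direction, and for each factor the 2 genes most like it. KDM1A, RCOR1 and the marker genes given with levels were named after their values were seen. The word TTGCNNAA was added after the promoter sequences were seen. Alternatives were other pseudocounts, filters, scalings, no trend, libraries left out and the number in the title as a block.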

Additional observations from a re-analysis of the deposited data

Results flagged for a closer look

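In groups of 4 libraries a value was singled out when the gap to its nearest neighbour took up more of the group's range than Dixon's critical share at 95%, which chance does for about 1 in 20 groups. It was applied to 50 values in the shLAMP5 libraries, and 2 met it. LMO2 was 77.4 TPM in shLAMP5 2, against 138.7 to 149.9 TPM in the other shLAMP5 libraries. The mean level of the genes that act on C/EBP, PU.1 and IRF8 was 5.11 in shLAMP5 2 on the log2(TPM + 1) scale, against 5.54 to 5.57 in the others and 5.32 and 5.36 in shNT. Both values belong to the library with the lowest median scaling factor, and whether that has a part in them was not tested.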

How the results depend on the processing

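Across the 15 alternatives no member reached an adjusted p under 0.05 (smallest 0.104), and 7 of the 9 kept the sign of their fold change. KLF4 turned to 0.15 without shNT 1 and shLAMP5 2 together, and leaving out single libraries gave -0.43 to 0.25, with 0.25, 0.018 and 0.0021 without shNT 1, shLAMP5 1 and shLAMP5 3. GFI1 ranged from -0.25 to 0.034, with 0.023 without shNT 2 and 0.034 without shLAMP5 2. The cause was not tested. At a minimum of 10 TPM, CEBPE and KLF4 were not tested. The count of all genes with an adjusted p under 0.05 was 14 with no filter and 16 with the replicate number as a block, where the residual rests on 1 degree of freedom. No shNT library carries the number of shLAMP5 3 or shLAMP5 4, so these add nothing to the group difference under the block. Its fold changes compare only shLAMP5 1 and shLAMP5 2 with shNT 1 and shNT 2. That block left 155 genes higher and 127 lower at an unadjusted p under 0.05, 0 members among them, and moved CEBPA to 0.048, SPI1 to 0.12, CEBPD to 0.21 and LMO2 to 0.46. The list medians under the block were 0.38 for monocyte genes (2 higher at an unadjusted p under 0.05 in place of 11), 0.37 for granulocyte genes, -0.032 for genes that act on the factors, 0.029 for other transcription factors and -0.22 for binding partners. Libraries share only the number: same-numbered deviations correlated at -0.52 and -0.474.

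Of the genes higher at an unadjusted p under 0.05 (486 with all libraries), there were 259 at 10 TPM, 765 under median scaling and 198 to 1351 with single libraries left out. Of those lower (686) there were 1148 with no filter, 357 without shNT 1 and shLAMP5 2 together and 210 to 897 with single libraries left out. Members higher at that p numbered 1 with no filter, where 2.21% of all genes were higher, and 0 to 3 with single shLAMP5 libraries left out. Members whose groups did not overlap numbered 5 without shNT 1 and shLAMP5 2 together, where 33.6% of all genes were higher in the same way, and 3 to 6 with single libraries left out. The highest came without shLAMP5 1, where 10.9% of all genes were. The median of other transcription factors was 0.09 at a pseudocount of 5, 0.03 with no filter and -0.032 to 0.15 with single libraries left out, that of genes that act on the factors -0.014 at 10 TPM and -0.0079 to 0.27 with single libraries left out, and that of binding partners was -0.22 at 10 TPM and -0.18 to -0.067 with single libraries left out. When an shNT library is left out, the remaining one is assumed to vary like the shLAMP5 group. TPM keeps no depth, so counting error at low genes such as KLF4 and CEBPE is unknown.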
